A study of Mus musculus with 18 samples.

Results

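In the differentiating WT mESCs of this study, a group of 204 of the 20703 genes in the expression table was lower at day 2 after the withdrawal of LIF and feeder cells than both before it, at day 0, and after it, at day 4. The group was chosen by a rule on the WT values: the mean of the 2 WT libraries of day 2 had to lie at least 0.5 below the WT mean of day 0 and at least 0.5 below that of day 4. The values are variance stabilized (VST) counts, which are on a log2 scale, and none of the 204 genes lies on the Y chromosome, whose genes were left out. Because WT values chose the genes, the dip in WT is a description and carries no test. The question that can be tested is whether the cells lacking Nsd1, whose libraries the rule did not use, showed the dip too.

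The study compared E14 cells, a mouse embryonic stem cell (mESC) line, that were WT with 2 lines, KO-1 and KO-2, in which exon 5 of Nsd1 was deleted on both alleles. Each KO line is 1 clone, both were made from cells whose Nsd1 carried a 3×Flag tag, and whether the WT libraries come from tagged cells is not given in the sources used here. Day 0 cells of all lines were grown with LIF, and the study describes the withdrawal of a feeder layer of mouse embryonic fibroblasts from them, while its growth conditions also name gelatin-coated plates. The day 2 and day 4 cells were kept as monolayers after LIF and feeder cells had been removed. There were 2 biological replicates per line and day, so 6 WT and 12 KO libraries of polyA RNA, with 9309874 to 23921193 counts per library on genes and a median of 15721347.5. The replicates are described as biological and independent, and the p-values measure the spread between these libraries. The main fit pools the 4 KO libraries of a day without a term for clone. With only 2 clones, its p-values do not speak for knockout clones in general.

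Nsd1 (ENSMUSG00000021488), the H3K36 methyltransferase that was targeted, had normalized counts of 3374 and 3659.9 at day 0, 2773 and 3344 at day 2 and 2425 and 2111 at day 4 in WT. In KO-1 (first 2 values) and KO-2 (last 2) the counts were 837, 711, 689 and 635 at day 0, 854, 927, 964 and 1024 at day 2 and 1103, 910.1, 575 and 684 at day 4. All 12 KO libraries lay below all 6 WT libraries. The count covers the whole gene, of which the deletion removed 1 exon. Normalized counts here and below are the counts recovered from the VST values divided by the size factors of the authors, and they are not divided by transcript length. The stem cell label held at day 0, where Zfp42 and Esrrb, genes of naive pluripotent cells, had mean normalized counts of 8709 and 11473 in WT and 11219.9 and 13568 in KO.

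The WT libraries of day 2, on which the rule rests most, were the 2 shallowest of the 18, with 9309874 and 9356867 counts. They also gave the largest share of their counts to ribosomal protein genes, 6.90% and 5.91%, against 3.05% to 4.89% in the other 16. With either of them left out, 182 and 198 of the 204 genes still met the rule. When the rule was applied to the WT libraries of replicate 1 alone, it took 240 genes, and in the WT libraries of replicate 2 these fell by a median of 0.74 and rose by 0.82, with 72.1% of them meeting both thresholds again. With the replicates exchanged, it took 217 genes, the medians were 0.75 and 0.91, and 79.7% met the thresholds again. In the tests below, which use the KO libraries alone, the WT libraries have no part.

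LIF keeps mouse embryonic stem cells in the naive state by binding a receptor that contains gp130, the product of Il6st, and by activating the transcription factor STAT3. When LIF is withdrawn, the naive factors are lost, the cells pass through a formative state that resembles the early epiblast, and they then enter the germ layers, with changes in cell shape, adhesion and extracellular matrix. Fibroblasts, epithelia and mesoderm all make matrix proteins and actin-binding proteins, and immediate early genes such as Fos and Egr1 respond within minutes to growth factors, serum and attachment.

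Across the 204 genes the median fall from day 0 to day 2 in WT was 0.79 and the median rise to day 4 was 0.93 on the VST scale. The depth of the dip, taken as the smaller of the fall and the rise, ran from 0.50 to 2.23 with a median of 0.68. All 204 genes were protein coding. The WT day 4 mean lay at least 0.5 above that of day 0 for 50 genes, within 0.5 of it for 126 and at least 0.5 below it for 28, so that most genes came back to near where they had started. The members just inside the threshold were Nedd4l, Rab5b and Phka1, with depths of 0.501, 0.502 and 0.503. Just outside it were Rnf4, Tollip and Baz2b, with 0.499, 0.499 and 0.497.

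In KO, part of the fall was present and most of the rise was not. Of the 204 genes, 70 (34.3%) were lower at day 2 than at day 0 in the 12 KO libraries, against 1.76% of all genes tested. The median KO change of the 204 genes was -0.36, beside -0.0041 over all genes. With limma-voom the median fall was larger, as given under how the results depend on the processing. Only 15 (7.35%) were higher at day 4 than at day 2, against 0.913% of all genes, and the median change was 0.046. A gene was called at an adjusted p under 0.01 and a log2 change over 0.58, from limma on the VST values with Benjamini-Hochberg adjustment over all 20703 genes. Both steps share the KO libraries of day 2, so they are not independent of each other. In these bulk libraries, fewer cells that express a gene and less RNA per cell cannot be told apart.

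The members fell into few KO patterns. Only 5 (2.45%) were called lower and then higher, the full dip, against 0.058% of all genes. Another 61 (29.9%, beside 1.58% of all genes) were lower at day 2 and not called from there to day 4, and 4 (1.96%, beside 0.126%) fell in both steps. A further 9 (4.41%, beside 0.691%) were not called at day 2 and rose at day 4. Besides these, 1 fell at day 4 alone (0.386% of all genes) and 1 rose in both steps (0.164%). The other 123 (60.3%, beside 95.7%) were called in neither step. Over the whole 4 days 65 genes (31.9%) ended lower than they began in KO, beside 3.05% of all genes, and 8 (3.92%) ended higher, beside 3.44%. Of the 70 genes lower at day 2, 54 were also lower at day 4 than at day 0 (26.5% of the members, beside 1.48% of all genes). The single gene that rose by day 2 was Scd2, against 1.42% of all genes, and 5 were lower at day 4 than at day 2, against 0.56%.

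**Figure D1:**
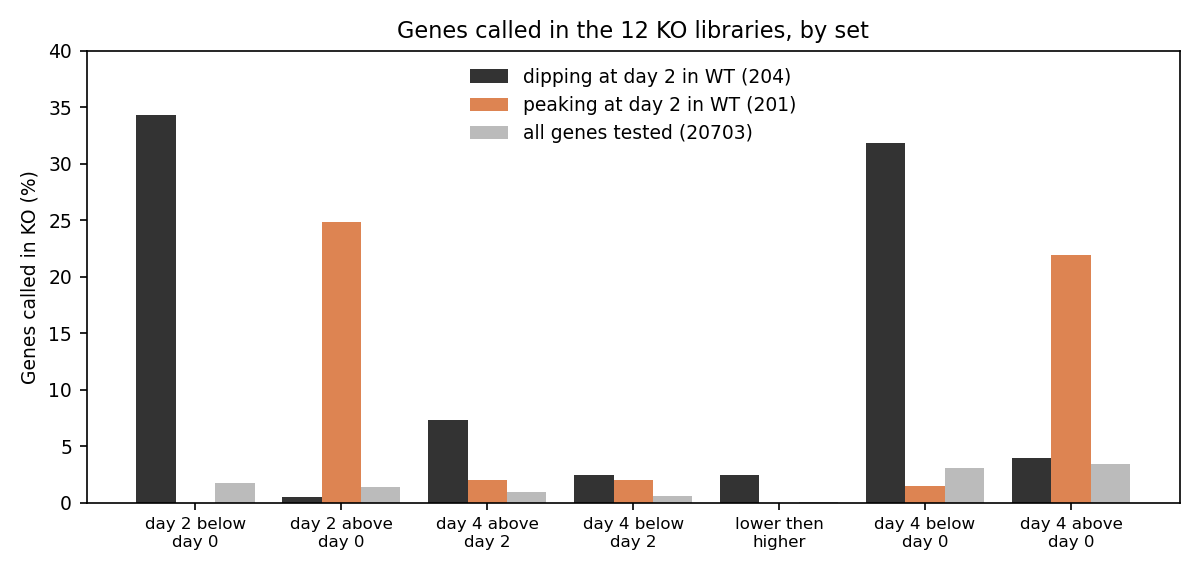
Share of genes (percent, y axis) called in each comparison within the 12 KO libraries, for the 204 genes dipping in WT (dark), the 201 genes peaking in WT (orange) and all 20703 genes tested (grey). The dark bars for day 2 below day 0 (34.3%) and day 4 below day 0 (31.9%) stand well above the grey ones, and that for day 4 above day 2 reaches 7.35%.

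Under each other way of counting, the fall in KO was also called in more members than the rise. Among the 12764 genes with a mean VST at or above the lowest of the members, 2.84% were lower at day 2 and 1.47% higher at day 4. At an unadjusted p under 0.05, 149 members were lower at day 2 (22.4% of all genes) and 67 higher at day 4 (16.8%). All 4 KO libraries of day 2 lay below all 4 of day 0 for 141 members (17.6% of all genes), and all 4 of day 4 above all 4 of day 2 for 55 (12.3%). With limma-voom on the recovered counts, which compresses low genes less, 100 members were lower at day 2 (8.72% of all genes), 3 higher (6.79%), 35 higher at day 4 (5.13%), 12 lower at day 4 (4.2%) and 24 lower then higher (0.7%).

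The rule can also be read on the KO means, as a description. The KO means of 10 of the 204 genes met the same 0.5 thresholds, beside 0.102% of the genes off the Y chromosome. The means of KO-1 met them for 15 members (0.164% of the same genes), those of KO-2 for 12 (0.155%), and both for 7 (0.0677%). The KO fall was smaller than the WT fall in 180 members (88.2%, beside 47.8% of all genes) and the KO rise smaller than the WT rise in 203 (99.5%, beside 47.3%), and members chosen for large WT changes lean that way by the choice alone. The median difference of the KO level from the WT level was -0.010 before withdrawal, 0.41 after 2 days and -0.50 after 4 days. No test is given for these differences, because the WT values chose the genes.

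**Figure D2:**
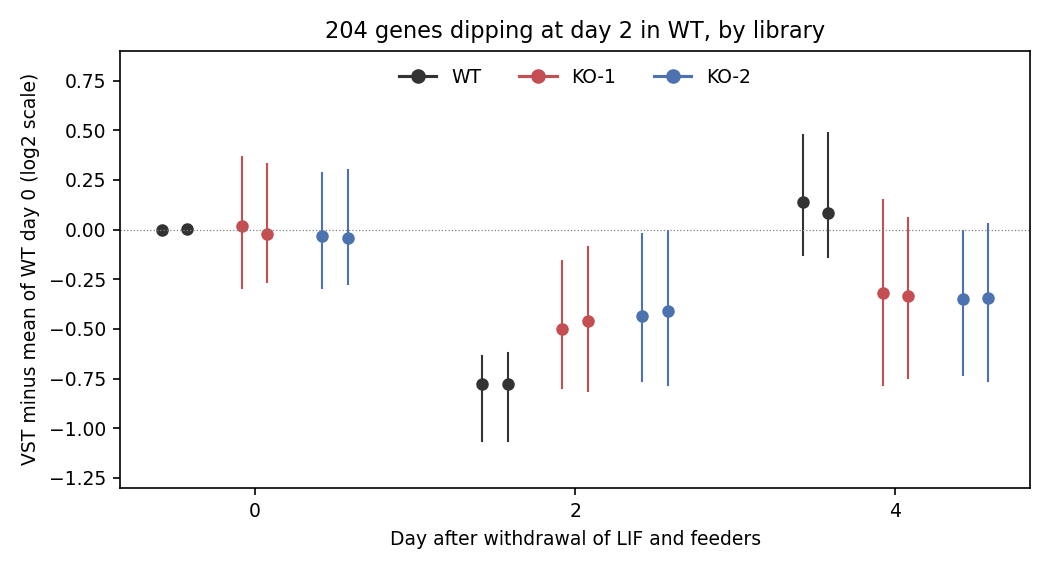
Median (points) and quartiles (bars) over the 204 genes of the VST value in each library minus the WT mean of day 0, on the log2 scale, by day; WT in dark grey, KO-1 in red, KO-2 in blue, 2 libraries each. The WT libraries drop to -0.78 at day 2 and reach 0.14 and 0.082 at day 4, while the 8 later KO libraries stay between -0.50 and -0.32.

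The share of members called in KO was higher where the WT change was larger, in both steps, as a description, since the WT values chose the members. Among the 61 members with a WT fall of 1 or more, 43 (70.5%) were lower at day 2 in KO, beside 1.76% of all genes. Among the 51 with a fall of 0.75 to 1 it was 15 (29.4%), and among the 92 with a smaller fall it was 12 (13%). Of the 83 members with a WT rise of 1 or more, 13 (15.7%) were higher at day 4 in KO, beside 0.913% of all genes. With a rise of 0.75 to 1 it was 2 of 56, and with a smaller one 0 of 65. Among these splits by WT change, the 28 genes that stayed at least 0.5 below their WT day 0 level had the highest share of KO falls, 21 (75%). They had 0 KO rises. In groups of 65 or 28, a count of 0 is near the 0.913% of all genes.

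**Figure D3:**
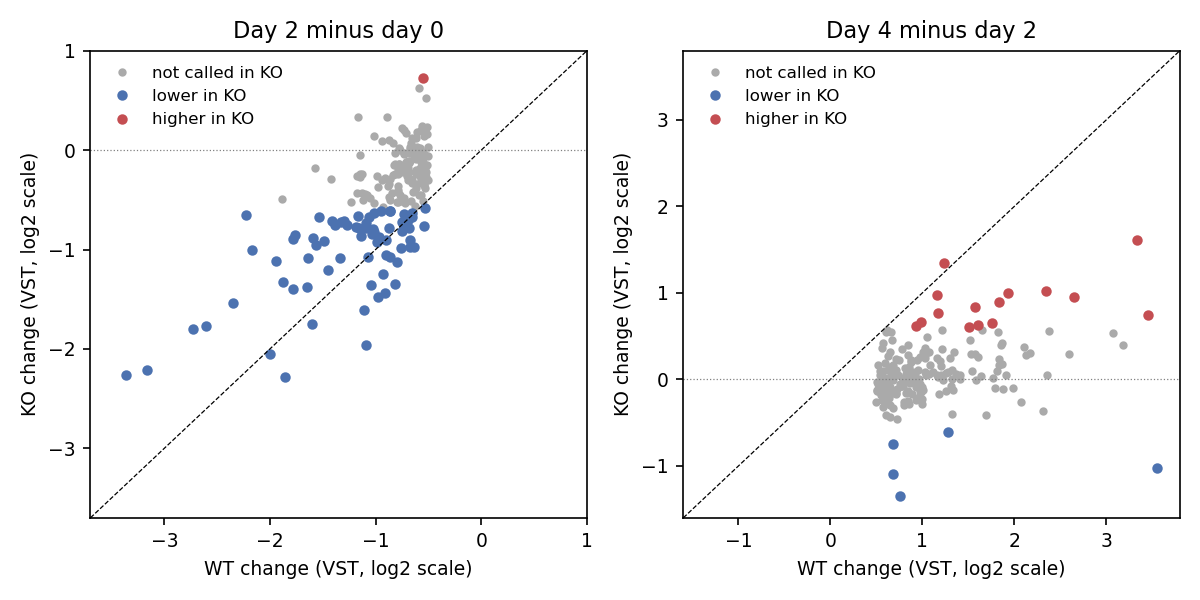
Change of each of the 204 genes in WT (x axis) against KO (y axis) on the VST log2 scale, from day 0 to 2 (left) and from day 2 to 4 (right), with the line of equal change dashed; blue and red points were called lower and higher in KO. On the left the KO changes reach from -2.28 to 0.73 and 70 points are blue, while on the right most points lie near a KO change of 0 and 15 are red.

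Of the matrix and cytoskeleton genes, Fn1 (ENSMUSG00000026193), which encodes the matrix protein fibronectin, had the deepest WT dip of all 204. Its normalized counts in the WT libraries were 20063 and 20432 at day 0, 3481 and 4195 at day 2 and 54170.4 and 49015 at day 4. In the KO libraries, KO-1 first, they were 30618, 26966, 25831 and 26726 at day 0, 15174, 17508, 18019 and 18651 at day 2 and 9136, 8054, 7756 and 7707 at day 4. In WT both day 2 libraries were far below the others and day 4 was highest, while in KO the 3 days did not overlap and the order was downward. The KO change was -0.65 ± 0.078 (SE), adjusted p = 1.62e-05 to day 2, and -1.03 ± 0.078 (SE), adjusted p = 4.79e-07 from day 2 to day 4.

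Vim (ENSMUSG00000026728), the intermediate filament vimentin of mesenchymal cells, had WT counts of 6455 and 6491 at day 0, 1626 and 1718 at day 2 and 20914 and 19209 at day 4. The KO counts were 8317, 7789, 8084 and 8366 at day 0, 3278, 3350.3, 3768 and 3601 at day 2 and 4101, 3903, 5569.7 and 5919 at day 4. The day 2 KO libraries lay below all of day 0, and those of day 4 lay above all of day 2 but below all of day 0. The KO change was -1.09 ± 0.10 (SE), adjusted p = 1.24e-06 to day 2, and 0.40 ± 0.10 (SE), adjusted p = 0.0107 to day 4, which missed both thresholds. Thbs1 (ENSMUSG00000040152), the secreted adhesion protein thrombospondin 1, had WT counts of 1682 and 1742 at day 0, 583 and 643 at day 2 and 2832 and 2676 at day 4. Its KO counts were 3381, 3107, 3398 and 3513 at day 0, 685, 760.3, 982 and 984 at day 2 and 1478, 1277, 1356 and 1287 at day 4. Day 2 was lowest in both genotypes, without overlap. The KO change was -1.48 ± 0.072 (SE), adjusted p = 1.59e-09, beside -0.98 in WT. Its later KO change of 0.45 (adjusted p = 0.000391) was under the 0.58 threshold on the VST scale.

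Col1a1 (ENSMUSG00000001506), the main collagen of fibroblasts, had WT counts of 1471 and 1493 at day 0, 459.5 and 408 at day 2 and 1644 and 1522 at day 4, and KO counts of 2509, 2455, 2994 and 2971 at day 0, 269, 319, 362 and 365 at day 2 and 282, 313, 717 and 658 at day 4. WT came back to its starting level, and the KO libraries of day 4 were all far below their day 0 values, those of KO-1 at about their day 2 level and those of KO-2 above it. Its KO change was -1.96 (adjusted p = 4.06e-08) to day 2 and 0.24 (adjusted p = 0.217) after it. Col5a1 (ENSMUSG00000026837), a minor fibrillar collagen, was one of the 5 genes with the full dip in KO, with changes of -0.82 (adjusted p = 2.72e-08) and 0.75 (adjusted p = 1.94e-07). Its mean counts at day 0, 2 and 4 were 859, 327 and 8774 in WT and 1177, 458 and 1096 in KO, so both genotypes turned upward but reached different levels.

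The other genes with the full dip in KO were Acta2, Lmna, Slc2a3 and Ahnak. Acta2 (ENSMUSG00000035783), smooth muscle actin, had WT counts of 582 and 583 at day 0, 176 and 185 at day 2 and 994 and 1010.2 at day 4 and KO counts of 838, 856, 1019 and 1033 at day 0, 259, 234, 284 and 227 at day 2 and 863, 1133, 1877 and 1727 at day 4. Its day 2 libraries lay below all others in both genotypes, and at day 4 the KO-2 libraries were above those of KO-1. The KO changes were -0.99 ± 0.13 (SE), adjusted p = 3.8e-05, and 1.35 ± 0.13 (SE), adjusted p = 4.39e-06.

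Lmna (ENSMUSG00000028063), which encodes the nuclear lamins A and C, had WT counts of 1078 and 1027 at day 0, 332 and 327 at day 2 and 1367 and 1299 at day 4. Its KO counts were 1062, 1013, 1015 and 979 at day 0, 161, 181, 220.0 and 162 at day 2 and 565, 572, 612 and 615 at day 4. The dip was there in both genotypes, deeper at day 2 and with less return at day 4 in KO, with changes of -1.24 (adjusted p = 6.54e-11) and 0.77 (adjusted p = 3.15e-08). Slc2a3 (ENSMUSG00000003153), a glucose transporter, had WT counts of 28359.7 and 29554 at day 0, 12265 and 13014 at day 2 and 40693 and 37353 at day 4, and KO counts of 32487, 29886, 28049.9 and 27677 at day 0, 18004, 18457, 15216 and 15786 at day 2 and 34020.1, 31537, 28379.8 and 28594 at day 4. Here 3 of the 4 KO libraries of day 4 lay within the day 0 range and 1 above it, with changes of -0.79 (adjusted p = 4.11e-06) and 0.84 (adjusted p = 5.08e-06). Ahnak (ENSMUSG00000069833), a giant scaffold protein at the cell membrane, had mean counts of 1179, 426 and 5447 in WT and 1681, 754 and 1939 in KO at day 0, 2 and 4, with KO changes of -0.79 (adjusted p = 0.000251) and 0.95 (adjusted p = 8.67e-05).

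**Figure D4:**
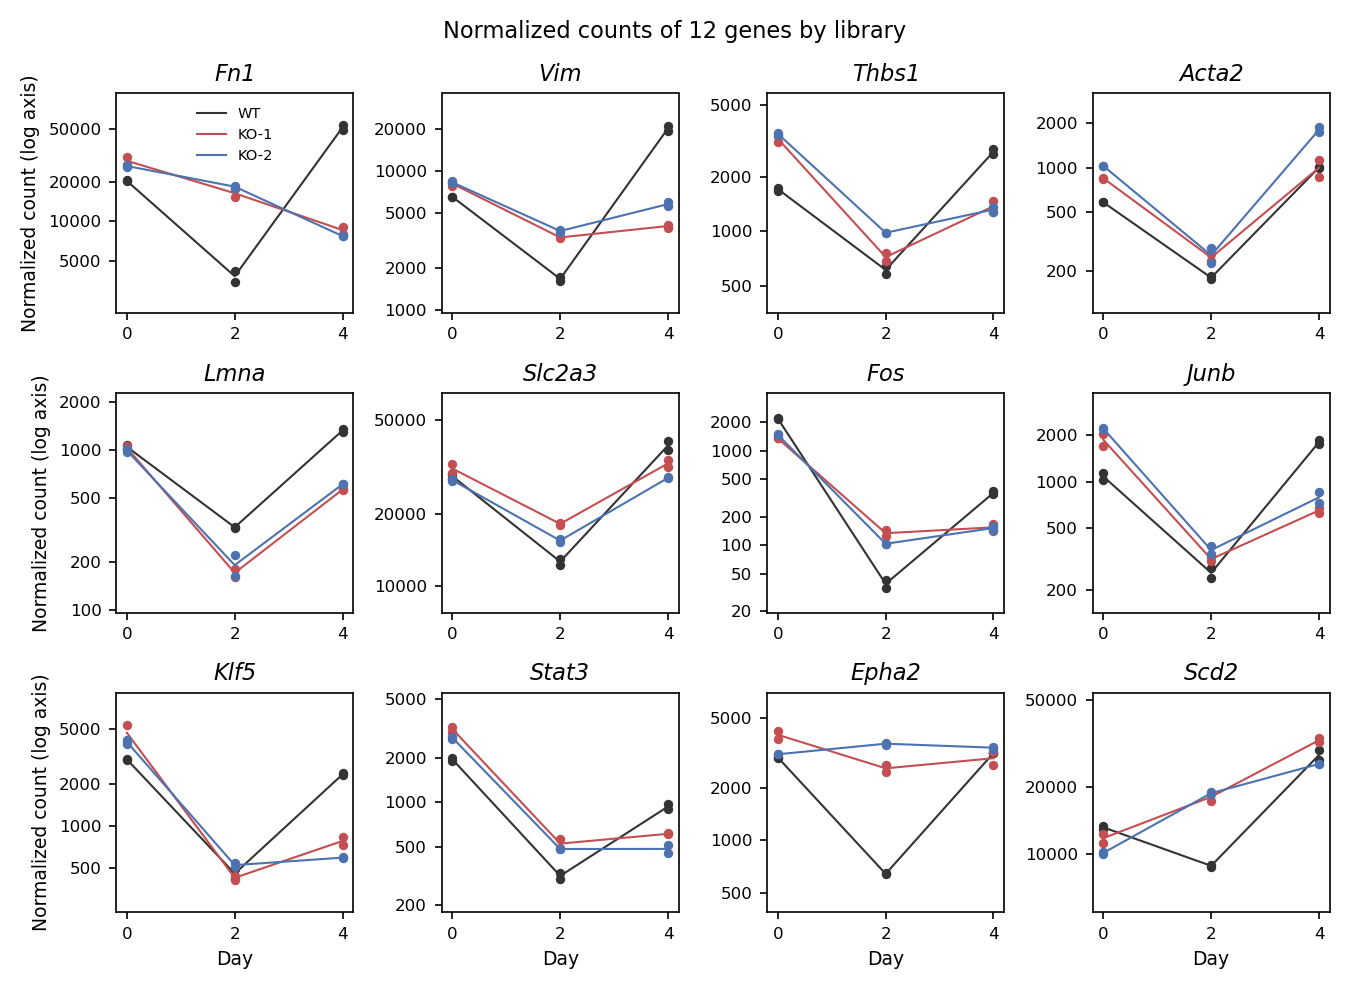
Normalized counts (log axis) of 12 genes in every library against the day after withdrawal; points are libraries, lines join the means of the 2 libraries of WT (dark grey), KO-1 (red) and KO-2 (blue). All 12 WT lines dip at day 2, whereas in KO the lines of Acta2, Lmna and Slc2a3 turn back up, those of Fos, Klf5 and Stat3 stay low, those of Epha2 go down in KO-1 and up in KO-2 to day 2, and that of Scd2 climbs.

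The list of 18 actin cytoskeleton and adhesion genes held 5 members, among them Fn1, Thbs1, Actn1 and Itga5. In KO 3 of its genes were lower at day 2 (Actn1, Fn1 and Thbs1), 1 higher, 7 higher at day 4 than at day 2 (Cnn1, Cnn2, Itga5, Myh9, Tpm1, Vcl and Zyx) and 1, Fn1, lower. Over all genes, for this and the lists below, 1.76% were lower and 1.42% higher at day 2, and 0.913% higher and 0.56% lower at day 4. Its median KO change to day 4 was 0.55 beside 0.046 over the members. Itga5, the fibronectin receptor subunit integrin alpha 5, had mean counts of 1657, 773 and 3927 in WT and 1332, 1648 and 2936 in KO, with KO changes of 0.22 (adjusted p = 0.0703) and 0.66 (adjusted p = 8.09e-05). The KO step to day 2 was not called and that to day 4 was. Actn1, which cross-links actin filaments, had KO changes of -0.67 (adjusted p = 1.95e-07) and 0.40 (adjusted p = 6.71e-05). Of 16 basement membrane and matrix genes, Nid1, Nid2 and Hspg2 were members, and in KO 6 of the list were lower and 2 higher at day 2, and 3 higher at day 4. Nid1, the basement membrane linker nidogen 1, had mean counts of 4432, 249 and 938 in WT and 5184, 1074 and 845 in KO, and a KO change of -1.80 (adjusted p = 1.11e-09) to day 2. Nid2, its relative, changed by -0.30 (adjusted p = 0.0142) and then -0.43 (adjusted p = 0.00181), and Hspg2, the proteoglycan perlecan, by -0.37 (adjusted p = 0.0203) and 0.25 (adjusted p = 0.145), all outside the thresholds.

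Many markers of feeder fibroblasts moved with these genes. Of the 19 measured, 5 were members (Acta2, Col1a1, Col5a1, Pdgfrb and Vim), and in KO 11 were lower at day 2, 0 higher, and 2 higher at day 4. The summed normalized counts of the 19 were 13210 and 13067 in the WT libraries of day 0, 4740.2 and 4632 at day 2, and 35401 and 32998 at day 4. In the KO libraries they were 17831 to 19882 at day 0, 6317 to 7205 at day 2 and 8408 to 12037 at day 4. Vim was the most abundant of them in all 18 libraries. The markers did not share one course. Fbln2, a matrix protein, fell and stayed low, with mean counts of 667, 159 and 116 in WT and 1514, 201 and 195 in KO at day 0, 2 and 4, and Col1a2, the partner chain of Col1a1, had 634, 177 and 359 in WT and 1224, 166 and 187 in KO. Timp1, a protease inhibitor, had 491, 139.8 and 106 in WT and 773, 378 and 301 in KO. Lum was at 0 in all 6 libraries of day 0, and Postn had day 0 means of 29.7 in WT and 52.4 in KO and was at 0 in both WT libraries of day 2. Mmp2, a matrix protease, went the other way, with 546, 887 and 601 in WT and 589.6, 1058 and 1275 in KO and a KO change to day 2 of 0.52 (adjusted p = 3.05e-05). In WT the means of Dcn, 2.28, 26 and 23.7, and of Cd44, 118, 145 and 605, did not dip. The mean count of Col3a1 was 99.3, 43.9 and 181 in WT and 336, 47.8 and 174 in KO at day 0, 2 and 4. Pdgfrb, a receptor of mesenchymal cells, had mean counts of 523, 119 and 457 in WT and 182, 31 and 26 in KO. Feeder cells were removed after day 0 by the study's account, and their part in the result was not tested. Without the 5 fibroblast markers, 65 of 199 members (32.7%) were lower at day 2 in KO and 13 (6.53%) higher at day 4. Leaving out 5 of 204 genes can change these shares only a little, whatever the part of the feeder cells.

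The promoter windows of members were searched for short motifs, because genes that move together may share them. Of the 204 genes, 147 had windows in the RefSeq table of build GRCm38.p6, 213 windows in all, and the 250 bases before each start were read on both strands. The TEAD hexamer GGAATG was in 16.0% of the windows, beside 11.2% of all 17008 windows of the 13448 genes of the expression table that had one. The AP-1 site, TGACTCA or TGAGTCA, was in 5.16% beside 3.59%, and AGGCCT, the core of the ZFX motif, in 14.1% beside 9.24%. The cyclic AMP element TGACGTCA was in 1.88% beside 2.29%, the E-box CACGTG in 7.98% beside 7.88%, and the T-box element TCACACCT in 0.469% beside 0.829%. In the 75 windows of members lower at day 2 in KO the shares were 21.3% for TEAD, 6.67% for AP-1, 9.33% for ZFX, 1.33% for the cyclic AMP element, 6.67% for the E-box and 1.33% for the T-box element. A match says only that the letters are there. None of these motifs contains another. The windows below, shown so that the matched letters can be seen in their place, are from members whose values are given in the text, with one match each in capitals and any other motif left in lower case. Positions count from the annotated start, the base before which is -1.
Acta2, chr19:34255485-34255544 (minus strand), bases -171 to -112: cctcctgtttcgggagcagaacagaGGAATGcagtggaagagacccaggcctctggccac
Ahnak, chr19:8989124-8989183 (plus strand), bases -160 to -101: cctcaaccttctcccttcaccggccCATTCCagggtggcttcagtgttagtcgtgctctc
Nid1, chr13:13437412-13437471 (plus strand), bases -190 to -131: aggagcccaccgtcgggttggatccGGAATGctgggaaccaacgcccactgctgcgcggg
Hspb1, chr5:135887845-135887904 (plus strand), bases -74 to -15: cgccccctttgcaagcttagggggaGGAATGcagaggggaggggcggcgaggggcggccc
Anxa2, chr9:69453563-69453622 (plus strand), bases -120 to -61: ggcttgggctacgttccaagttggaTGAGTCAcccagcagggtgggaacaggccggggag
Dusp1, chr17:26508581-26508640 (minus strand), bases -168 to -109: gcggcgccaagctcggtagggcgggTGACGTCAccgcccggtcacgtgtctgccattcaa
Btg2, chr1:134079287-134079346 (minus strand), bases -191 to -132: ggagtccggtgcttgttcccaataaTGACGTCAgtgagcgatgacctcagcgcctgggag
Il6st, chr13:112463940-112463999 (plus strand), bases -130 to -71: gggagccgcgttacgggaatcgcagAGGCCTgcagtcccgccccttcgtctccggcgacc

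In these windows Acta2, Ahnak, Nid1 and Hspb1 hold the TEAD letters, Anxa2 those of AP-1, Dusp1 and Btg2 the cyclic AMP element and Il6st the ZFX core. Tead1 and Tead4, the DNA-binding partners of YAP, were the members among 12 measured genes of YAP and TEAD, with KO changes to day 2 of -0.30 (adjusted p = 0.0725) and -0.87 (adjusted p = 1.49e-08). Of that list 3 were lower at day 2 in KO and 1 higher at day 4. Tead4 had mean counts of 357, 35.8 and 413 in WT and 392, 65 and 77.9 in KO.

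Hspb1 (ENSMUSG00000004951) and Anxa2 (ENSMUSG00000032231) were also among the 8 deepest WT dips. Hspb1, a small heat shock protein, had WT counts of 5442 and 5114 at day 0, 1155 and 1086 at day 2 and 4746 and 5106 at day 4, and KO counts of 2578, 3637, 3489 and 3548 at day 0, 1473, 1349.9, 1738 and 1437 at day 2 and 753, 931, 1329 and 1029.7 at day 4. In KO it ended lowest, with changes of -0.90 (adjusted p = 1.78e-05) and -0.41 (adjusted p = 0.015). Anxa2, a calcium-dependent membrane and actin binder, had mean counts of 1529, 318 and 3193 in WT and 1324, 365 and 568 in KO, with KO changes of -1.09 (adjusted p = 1.15e-06) and 0.31 (adjusted p = 0.0419). Both were high, low and high again in WT and were not called higher at day 4 in KO. Tgm1, an epithelial transglutaminase, and Cmtm6, a membrane protein, had the same course. The mean counts of Tgm1 were 826, 76.4 and 2088 in WT and 298, 61.2 and 73.2 in KO, and those of Cmtm6 were 2926, 788 and 4752 and 1962, 948 and 849.6. Their KO changes to day 2 were -0.71 (adjusted p = 1.32e-08) and -0.75 (adjusted p = 2.17e-07), and to day 4 0.053 (adjusted p = 0.433) and -0.097 (adjusted p = 0.287).

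Immediate early genes formed the next group, with Fos, Egr1, Junb, Dusp1 and Btg2 as members out of 17 measured. In KO, 8 of the 17 were lower at day 2 (Dusp1, Egr1, Egr2, Fos, Fosb, Fosl2, Junb and Zfp36), 0 higher, and 1 (Fosl2) higher at day 4. Fos (ENSMUSG00000021250), a subunit of AP-1, had WT counts of 2176 and 2209.8 at day 0, 42.4 and 35.7 at day 2 and 346 and 371 at day 4. Its KO counts were 1355, 1353, 1457 and 1494 at day 0, 124, 144, 103 and 104 at day 2 and 167, 143, 160.3 and 144 at day 4. The KO libraries of day 2 and day 4 overlapped, and all 8 lay far below day 0. The KO change was -1.77 ± 0.044 (SE), adjusted p = 2.75e-12 to day 2 and 0.11 ± 0.044 (SE), adjusted p = 0.0791 to day 4.

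Egr1 (ENSMUSG00000038418), a zinc finger factor of the same response, had WT counts of 5755 and 5530.2 at day 0, 174 and 225 at day 2 and 578 and 648 at day 4 and KO counts of 5701, 5518, 5178 and 5105 at day 0, 827, 851, 598 and 627 at day 2 and 956, 966, 913 and 858 at day 4, with changes of -2.22 (adjusted p = 2.4e-11) and 0.22 (adjusted p = 0.0315). Junb (ENSMUSG00000052837), another AP-1 subunit, had WT counts of 1139 and 1027 at day 0, 238 and 276 at day 2 and 1759 and 1859 at day 4 and KO counts of 1710.4, 2037, 2194 and 2238 at day 0, 326, 305, 382 and 339 at day 2 and 625, 680.0, 859.6 and 727 at day 4. Its day 4 KO libraries were all above day 2. The VST change was 0.57 (adjusted p = 4.19e-05), just under the 0.58 threshold, while the mean KO count went from 338 to 723. It followed a change of -1.61 (adjusted p = 6.05e-10) to day 2. Dusp1, a phosphatase of MAP kinases, had mean counts of 1133, 509 and 2206 in WT and 1025, 445 and 477 in KO, and Btg2, an antiproliferative gene, 1112, 559 and 1673 and 663, 685 and 939.8. Dusp1 fell in KO, by 0.70 (adjusted p = 1.91e-07), and Btg2 changed by 0.027 (adjusted p = 0.765).

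A list of LIF and STAT3 pathway genes was put together after the members had been seen, so that its counts, of members and of KO calls, support nothing. Of its 21 genes, 9 were members: the receptor subunit Il6st, the factor Stat3, and the targets Gprc5a, Junb, Klf5, Pim1, Pim3, Sbno2 and Tbx3. In KO, 12 of the 21 were lower at day 2, 0 higher, and 1, Gprc5a, higher at day 4. Il6st (ENSMUSG00000021756) had WT counts of 2481 and 2521 at day 0, 805 and 853 at day 2 and 2928 and 2792 at day 4, and KO counts of 3409, 2709, 2680.2 and 2871 at day 0, 2498, 2657, 2842 and 3162 at day 2 and 2972, 2758, 2304 and 2425 at day 4. In KO the 3 days overlapped over both clones, and the changes, not called, were -0.052 (adjusted p = 0.679) and -0.078 (adjusted p = 0.587).

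Stat3 (ENSMUSG00000004040) had WT counts of 1901 and 2003 at day 0, 303 and 331 at day 2 and 970.1 and 899 at day 4, and its KO counts were 3255, 3005, 2782 and 2689.9 at day 0, 489, 559, 481 and 483 at day 2 and 604, 617, 454 and 512 at day 4. It fell in KO as in WT, and there day 2 and day 4 overlapped, with changes of -1.75 (adjusted p = 8.45e-11) and 0.061 (adjusted p = 0.57). Klf5 (ENSMUSG00000005148), a naive pluripotency factor, had WT counts of 2998 and 3028 at day 0, 420.4 and 486 at day 2 and 2393 and 2308 at day 4. Its KO counts were 5324, 4055, 4161 and 3899 at day 0, 439, 407, 504 and 539.5 at day 2 and 828, 730.0, 592 and 589 at day 4. In WT day 4 lay below day 0 but far above day 2, while in KO both later days lay far below day 0. Its KO change after a fall of 2.28 (adjusted p = 1.59e-10) was 0.29 (adjusted p = 0.0275). Of the kinases and cofactors, Pim3 fell in KO with a change of -0.89 (adjusted p = 9.17e-08) and Sbno2 with -0.85 (adjusted p = 1.41e-07), whereas Pim1 had -0.22 (adjusted p = 0.0325). Gprc5a, an orphan receptor, had mean counts of 389, 26 and 652 in WT and 179, 46.9 and 221 in KO and KO changes of -0.50 (adjusted p = 1.96e-05) and 0.61 (adjusted p = 6.99e-06).

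Of 12 naive pluripotency genes, Klf5, Nanog and Tbx3 were members, and 11 were lower at day 2 in KO, 0 higher at either step and 3 lower at day 4. The median change of the 12 to day 2 was -1.62 in KO and -2.60 in WT. Nanog (ENSMUSG00000012396), a core pluripotency factor, had WT counts of 8008 and 7928 at day 0, 1067 and 1129.7 at day 2 and 1914 and 2024 at day 4, and KO counts of 7617, 7692, 7037 and 7049 at day 0, 2604, 2632, 1745 and 1712 at day 2 and 4002, 4187, 2957 and 2884 at day 4. At both later days all KO libraries were above the WT ones. Its KO changes were -1.54 (adjusted p = 3.56e-07) and 0.57 (adjusted p = 0.00434). The second was just under the 0.58 threshold on the VST scale, with mean KO counts of 2173 at day 2 and 3507 at day 4. Tbx3 (ENSMUSG00000018604), a T-box factor, had mean counts of 5033, 91 and 628 in WT and 3239, 281 and 319.8 in KO, so that WT rose after day 2 but stayed far below its day 0 level. Tfap2c, a factor of naive cells and the 1 member among 11 trophoblast genes, had mean counts of 1454, 80.4 and 251 and 2338, 787 and 747 and a KO change of -1.11 (adjusted p = 2.15e-07).

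The genes with the largest KO fall over the 4 days among those lower at day 2 and not higher later were Upp1, Tbx3, Tdgf1, Nid1 and Egr1. Upp1 (ENSMUSG00000020407), uridine phosphorylase, had WT counts of 7921 and 8023 at day 0, 2358 and 2525 at day 2 and 4455 and 4664 at day 4. Its KO counts were 6927, 7296, 8461 and 8773 at day 0, 3764, 3584, 4330.1 and 3802 at day 2 and 1045, 1086, 1212 and 1357 at day 4. The KO days did not overlap and descended, with changes of -0.91 (adjusted p = 7.69e-07) and -1.35 (adjusted p = 5.67e-08). Tdgf1, the Nodal co-receptor Cripto, had mean counts of 21906, 5012 and 8323 in WT and 16806, 3578 and 3642 in KO, with KO changes of -2.05 (adjusted p = 5.62e-12) and 0.024 (adjusted p = 0.823). Besides Fn1 and Upp1, the genes lower at day 4 than at day 2 in KO were Mov10, an RNA helicase, Dlc1, a GTPase activator, and Adam19, a metalloprotease, with changes of -0.75 (adjusted p = 4.63e-06), -1.10 (adjusted p = 7.16e-07) and -0.61 (adjusted p = 0.0001). All but Adam19 had also fallen by day 2.

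Secreted signals and their targets gave 1 or 2 members a list. Of 19 Nodal and TGF-beta genes, Tdgf1 and Lefty2 were members, and in KO 4 were lower and 4 higher at day 2, and 1 higher and 1 lower at day 4. Lefty2, the Nodal antagonist, had WT counts of 1157 and 1167 at day 0, 614 and 645 at day 2 and 5495 and 5130.2 at day 4 and KO counts of 6633, 6685, 6985 and 6834 at day 0, 3959, 3916, 5314 and 5294 at day 2 and 2743, 2898, 4148 and 4138 at day 4. It was higher in KO than in WT at day 0 and day 2 in all libraries, and its KO changes of -0.51 (adjusted p = 0.00448) and -0.36 (adjusted p = 0.0466) did not pass. Of 17 BMP genes, Bmp4 was a member, with mean counts of 333, 87.8 and 667 in WT and 192, 31.5 and 35.8 in KO and a KO change of -0.63 (adjusted p = 2.29e-06), and 1 of the list was lower and 1 higher at day 2 and 2 higher at day 4. Cdx1, a caudal homeobox factor and a member shared by the lists of 18 Wnt and 16 primitive streak genes, had mean counts of 137, 3.24 and 286 in WT and 4.8, 2.83 and 5.28 in KO. In those lists 6 and 5 genes were higher at day 4 in KO, 2 and 1 higher at day 2, and 0 lower at day 2.

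Metabolic and stress lists held 1 or 2 members each. The cholesterol list of 20 had 2 members, among them Stard4, with a KO change to day 2 of 0.20 (adjusted p = 0.11), and 0 of the list was lower, 2 higher at day 2 and 1 higher at day 4. The 18 amino acid and ATF4 genes had Cth, an enzyme that makes cysteine, with mean counts of 1232, 534 and 3153 in WT and 1123, 487 and 424 in KO, and 7 of the list were lower and 1 higher at day 2 in KO, and 1 lower at day 4. The 20 hypoxia and glycolysis genes had Slc2a3, with 7 lower at day 2, 1 higher and 4 lower at day 4. The 15 Trp53 targets had Btg2 and Cdkn1a, with 2 higher at day 2 and 1, Cdkn1a, at day 4. Cdkn1a (ENSMUSG00000023067), the cell cycle inhibitor p21, had WT counts of 1654 and 1672 at day 0, 473 and 441 at day 2 and 1559 and 1705 at day 4 and KO counts of 1185, 1284, 1148 and 1269.7 at day 0, 1033, 1062, 886 and 782 at day 2 and 2043, 2378, 2759 and 2386 at day 4. Its KO day 4 libraries were above all other KO libraries, after a change of -0.26 (adjusted p = 0.0156), with one of 0.98 (adjusted p = 4.81e-07). Of 25 imprinted genes, Peg10 was a member, and 6 were higher at day 2 and 5 at day 4 in KO. Extraembryonic endoderm, formative epiblast, neuroectoderm and endogenous two-cell genes, nuclear non-coding RNAs and the enzymes of H3K36 and H3K27 methylation held 0 members. With 204 of 20703 genes as members, 0 in lists this short is near the share over all genes. In KO, 6 of 9 formative epiblast genes were higher at day 2, and of 18 extraembryonic endoderm genes 4 were lower and 1 higher. Of 11 trophoblast genes 1 was lower at day 2, and of 9 neuroectoderm genes 1 was lower and 1 higher. Of 14 nuclear non-coding RNAs 2 were higher at day 2, of 19 methylation enzymes 1 was lower, and of 13 two-cell genes 0 were called in either step. From day 2 to day 4 in KO, 4 trophoblast genes were higher (Cdx2, Eomes, Krt8 and Krt18). So were 2 neuroectoderm genes (Nes and Sox1), 2 extraembryonic endoderm genes (Col4a1 and Sparc) and 2 formative epiblast genes (Fgf5 and Lef1). Lower at that step were 1 formative epiblast gene, Dnmt3l, and 1 methylation enzyme, Jarid2.

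**Figure D5:**
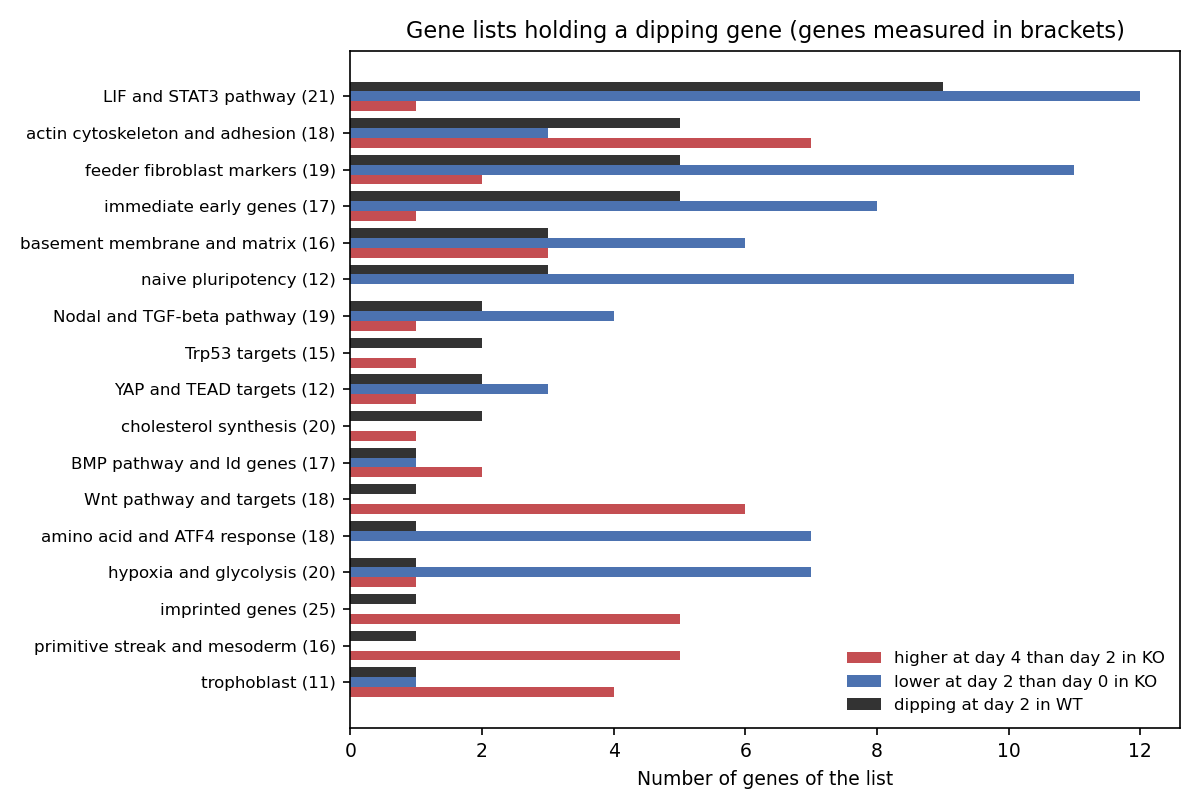
Number of genes (x axis) of each list that are among the 204 dipping genes (dark), were lower at day 2 than day 0 in KO (blue) or were higher at day 4 than day 2 in KO (red), with the number measured in brackets. The blue bar is longest for the LIF and STAT3 list (12 of 21, put together after the members were seen), the naive pluripotency list (11 of 12) and the fibroblast markers (11 of 19), and the red bar for actin and adhesion genes (7 of 18).

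Some members had no called fall in KO. Epha2 (ENSMUSG00000006445), an ephrin receptor kinase and one of the 8 deepest WT dips, had WT counts of 2941 and 3005 at day 0, 639 and 647 at day 2 and 3135 and 3168 at day 4. Its KO counts were 4214, 3798, 3097 and 3103 at day 0, 2464, 2691, 3515 and 3610.1 at day 2 and 2709.6, 3175, 3418 and 3343 at day 4. Over both clones the 3 days overlapped, with changes of -0.18 (adjusted p = 0.241) and 0.045 (adjusted p = 0.835). The clones went opposite ways to day 2, by -0.54 in KO-1 and 0.17 in KO-2, and within each clone the 2 days did not overlap (adjusted p of the difference = 0.0644 in the fit of 6 groups). Scd2 (ENSMUSG00000025203), a fatty acid desaturase, went the other way, with WT counts of 12998 and 13316 at day 0, 8677 and 8916 at day 2 and 29507 and 26583 at day 4 and KO counts of 12281, 11219, 10142 and 9999 at day 0, 17383, 18825, 18603 and 19022 at day 2 and 33464, 31986, 25585 and 25508 at day 4. The KO days did not overlap and ascended, and the gene rose in both steps, by 0.73 (adjusted p = 2.72e-05) and 0.63 (adjusted p = 0.000196). Peg10, a gene derived from a retrotransposon, had mean counts of 8384, 5369 and 50145 in WT and 21987, 34146 and 51692 in KO, and its KO change of 0.63 (adjusted p = 0.0128) to day 2 missed the threshold on p.

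Of the 15 genes higher at day 4 than at day 2 in KO, 5 had a called fall before, Scd2 rose in both steps and 9 were not called at day 2. Among those 9 were Dsp, the desmosome protein desmoplakin, Nuak1, a kinase, and Cited2, a transcriptional cofactor. Their KO changes to day 4 were 1.61 (adjusted p = 1.1e-07), 1.00 (adjusted p = 1.2e-08) and 1.02 (adjusted p = 4.66e-07). The mean counts of Dsp were 1179, 663 and 11811 in WT and 304, 225 and 1656 in KO, and those of Cited2 were 1223, 696 and 5811 and 546, 999.7 and 2607. These genes, and Stard8 and Abhd2 with changes of 0.67 (adjusted p = 8.9e-06) and 0.62 (adjusted p = 0.000197), were named after their values were seen.

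Highly expressed members without a KO call included Ctnna1, alpha-catenin, and Lasp1, an actin-binding adaptor. The mean counts of Ctnna1 were 11414, 6493 and 13878 in WT and 9395, 8274 and 8832 in KO, and those of Lasp1 were 5482, 3392 and 13018 and 6435, 4952 and 5027. Their KO changes to day 2 were -0.17 (adjusted p = 0.0227) and -0.34 (adjusted p = 0.000254), so Lasp1 passed the threshold on p but not on size. The median length of the members, taken per gene as the median over its annotated coding transcripts, was 2736 bases, beside 2175 over the 15985 coding genes with a length, and 36.3% of them lay above the upper quartile of coding genes.

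The clones showed differences that few fits called. In a fit of 6 groups, 0 members changed differently in KO-1 and KO-2 from day 0 to 2 (0% of all genes) and 0 from day 2 to 4 (0%). At an unadjusted p under 0.05, 78 and 95 of the 204 members did so, larger shares than the 15.2% and 22.6% of all genes. With limma-voom 0 members differed to day 2 (0.00483% of all genes) and 9 (4.41%, beside 1.35% of all genes) to day 4, among the 9 Col1a1 and Dsp. Without replicate 1 of KO-1 day 0, the fit of 6 groups called 0 members to day 2 (0% of all genes) and 8 (3.92%, beside 0.749%) to day 4. Without its replicate 2 these were 1 (0.116% of all genes) and 8 (0.749%). Of the genes named by rule, Epha2 moved in opposite directions in the clones from day 0 to 2, and Epha2, Tgm1, Lasp1, Tead1 and Stard4 did so from day 2 to 4, in each case with no overlap between the days within a clone. The adjusted p of these clone differences ran from 0.0359 (Stard4) to 0.215 (Epha2, day 2 to 4), none of them under 0.01. The median KO change to day 2 was -0.44 in KO-1 and -0.28 in KO-2, and to day 4 it was 0.087 and -0.011.

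The opposite rule, WT day 2 at least 0.5 above both other days, took 201 genes, 15 of them ribosomal protein genes, beside 0 among the dipping genes. Of these peaking genes 50 (24.9%, beside 1.42% of all genes) were higher at day 2 in KO and 0 lower (1.76% of all genes). From day 2 to day 4, 4 were lower (1.99%, beside 0.56%) and 4 higher (1.99%, beside 0.913%). Their median KO change was 0.24 to day 2 and -0.074 to day 4. Both sets were chosen for large WT changes, so a smaller KO change is built into the choice, and the difference between the sets was not tested.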

How the data were processed

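RNA-seq of polyA RNA from 6 WT and 12 Nsd1 KO libraries was analysed from the one deposited table of expression values. Per the labels and the methods of the study, the authors trimmed reads with Trim Galore 0.6.7, aligned them to mm39 with STAR 2.7.11a, counted them on genes with featureCounts 2.0.6, removed genes with an average count under 1 and made variance stabilized (VST) values with DESeq2 1.42.0. These deposited values are on a log2 scale, for 20703 genes, with a count of 0 at 8.36. Changes are compressed on it, most for low genes but not only for them. For Fos the mean KO count went from 1415 at day 0 to 119 at day 2, a VST change of -1.77. Inverting the transformation gave whole counts for 100% of the values (tolerance 0.02 counts plus 0.0001 of the count), and the size factors of the authors.

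Because VST values are not counts, limma 3.58.1 (R 4.3.3, trended prior variance) was used on the 12 KO libraries, with 3 groups by day. limma-voom on the recovered counts, 6 groups of clone and day, a replicate block, other scalings and leaving out each library were alternatives. The main form of the fit was run on simulated counts with changes of 2-fold and 4-fold at day 2 in well-expressed genes. The simulation held no difference between clones, so it does not check their pooling. Named genes were the 8 deepest WT dips, the genes lower then higher in KO, the 5 largest KO falls to day 4 and rises to day 2, the 5 highest at WT day 0 per kb, 3 genes on each side of the threshold, Nsd1 and the members of 22 gene lists. The members and lists were chosen with earlier results of these data known, and the LIF and STAT3 list, with its members Gprc5a, Il6st, Pim1, Pim3, Sbno2 and Stat3, was added after the members had been seen, as were the other genes named beside a count. A few members that these rules name are not reported here. The labels do not say whether replicate numbers mark a shared day or culture, and the KO groups showed no consistent pairing by number. Promoter windows came from RefSeq on GRCm38.p6, not the build of the counts, and no coordinate was carried between builds.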

Additional observations from a re-analysis of the deposited data

Results flagged for a closer look

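Over the genes reported here, 153 groups of 4 KO libraries were tested for a library far from the others, and in 2 the gap between it and its nearest neighbour took more than 0.829 of the whole range, while chance gives about 1 in 20. At day 0, replicate 1 of KO-1 was low for Hspb1, at a VST of 11.64 beside 12.01 to 12.06 in the other 3 libraries (gap 0.877 of the range). At day 4, replicate 2 of KO-2 was high for Pdgfrb, at 8.92 beside 8.68 to 8.70 (gap 0.94). The library of day 0 also had the third lowest total of all 18, 9644240 counts. No explanation was tested.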

How the results depend on the processing

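In the limma and limma-voom fits run, and in the fits without 1 library, more members fell by day 2 in KO than rose after it. The number of dipping genes depended on the scale and the threshold: 24 genes met a threshold of 1, and 2038, among them all 204, met 0.5 on log2(normalized count + 1), where 301 met the rule in KO as well. No share over all genes is given on that scale, so the 301 were not compared with one. With limma-voom 35 members were higher at day 4, 24 lower then higher, 3 higher at day 2, 12 lower at day 4, the median change to day 2 was -0.60, and 9 differed between clones. At an adjusted p under 0.05 without a fold threshold, 142 were lower at day 2 (17.9% of all genes), 57 higher at day 4 (11.5%), 44 lower then higher (1.88%), 9 higher at day 2 (15.7%) and 27 lower at day 4 (10.2%). In KO-1 alone 3 were lower at day 4 (0.42% of all genes) and the medians were -0.44 and 0.087, and in KO-2 alone 8 were lower at day 4 (0.937%), 9 lower then higher (0.101%), 2 higher at day 2 (1.74%) and the medians were -0.28 and -0.011. The count higher at day 2 was 3 under median centring (1.53% of all genes) and 2 with 6 groups, all 18 libraries or a filter at the 25th percentile (1.43%, 1.43% and 1.91%), Peg10 being the added gene in the last 3. The causes were not tested.

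Leaving out 1 library left 67 to 73 members lower at day 2, 14 to 18 higher at day 4, 5 to 7 lower then higher and 1 to 2 higher at day 2, of 204 members, or of 207 to 231 where a WT library was left out. Over all genes the fits without a KO library called 1.71% to 1.8%, 0.903% to 0.99%, 0.0483% to 0.0676% and 1.36% to 1.52%, and those without a WT library use the fit of all 12 KO libraries. Between 0 and 9 members differed between clones, 8 without KO-1 day 0 replicate 1 and 9 without its replicate 2 over both steps, and these fits leave 1 library in a group, which is assumed to vary like the others. With a replicate block 69 members were lower at day 2 (1.75% of all genes), 15 higher at day 4 (0.913%) and 5 lower then higher (0.0531%), and no call of a named gene changed. Same-numbered libraries of the KO groups did not consistently deviate together (15 pairs of groups, r from -0.61 to 0.64), so no consistent pairing by number was seen. Named genes were recomputed with limma-voom, 6 groups, the replicate block, each clone alone, median centring, quantile normalization and each KO library left out. Of these 1976 values, 12 lost and 34 gained a call and 0 called values reversed. Changes are compressed on the VST scale, most for low genes, and the fold threshold on that scale leaves out smaller VST changes with a low adjusted p.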
